A study of Mus musculus with 2 samples.

Results

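The genes described here carry glucose through glycolysis to lactate in mouse embryonic stem cells: the transporters Slc2a1 and Slc2a3, the enzymes Hk2, Aldoa, Pgk1 and Eno1, both main lactate dehydrogenase genes, Ldha and Ldhb, the pyruvate dehydrogenase kinase Pdk1, and Txnip, a regulator of glucose uptake. These 10 genes were taken by symbol from the 14398 genes of the deposited table, and all 10 were found. They were chosen by name with the normalized values of both libraries in view, the same values that are compared below, so their ratios are a description and not a test. The study compared cells of the 46C embryonic stem cell line, which carries a GFP reporter in Sox1, that overexpressed ID2 (labelled PB-ID2, 1 library) with 46C cells that had an empty vector (labelled PB, 1 library). Both were grown with serum and leukemia inhibitory factor on gelatin at passages 21 to 24. ID2 is a helix-loop-helix protein that lacks a DNA-binding domain and sequesters E proteins. With 1 library per group there was no replicate spread and no test, and every difference below is one between 2 cultures.

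Glycolysis splits glucose into pyruvate, which lactate dehydrogenase reduces to lactate or which enters mitochondria through the pyruvate dehydrogenase complex. Mouse embryonic stem cells make use of glycolysis while they proliferate. Lactate dehydrogenase is a tetramer of A subunits (Ldha), which favour lactate formation, and B subunits (Ldhb), which favour its oxidation. Txnip binds thioredoxin and promotes the internalization of glucose transporters, and its transcription is induced by glucose metabolites through the factors MondoA and ChREBP with their partner MLX. Many glycolytic genes are targets of the hypoxia-inducible factor HIF-1.

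The promoters of Txnip and Ldhb, of the 10 genes the furthest apart between the libraries, and of Ldha, the partner of Ldhb, are shown. They are from RefSeq (build GRCm38.p6), each from 250 bases before to 50 bases after the start listed first for the gene. In Txnip, capitals mark a pair of E-box-like hexamers, the carbohydrate response element that MondoA and ChREBP bind. In Ldha and Ldhb, capitals mark the HIF-1 core letters ACGTG or GCGTG on either strand, and in Ldha also the palindrome CACGTG, which overlaps them.
Txnip (chr3:96557707-96558006, plus strand): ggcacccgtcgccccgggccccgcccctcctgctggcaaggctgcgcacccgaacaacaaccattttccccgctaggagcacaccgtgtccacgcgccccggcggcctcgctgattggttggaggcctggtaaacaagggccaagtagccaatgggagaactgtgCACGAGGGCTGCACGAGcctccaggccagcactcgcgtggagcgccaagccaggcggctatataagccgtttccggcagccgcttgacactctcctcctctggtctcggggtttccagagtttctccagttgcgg
Ldhb (chr6:142507908-142508207, minus strand): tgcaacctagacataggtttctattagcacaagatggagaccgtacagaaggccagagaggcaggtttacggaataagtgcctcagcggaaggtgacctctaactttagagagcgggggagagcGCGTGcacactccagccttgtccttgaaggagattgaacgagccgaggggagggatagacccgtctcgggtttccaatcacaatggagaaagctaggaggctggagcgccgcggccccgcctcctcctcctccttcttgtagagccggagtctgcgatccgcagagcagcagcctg
Ldha (chr7:46845554-46845853, plus strand): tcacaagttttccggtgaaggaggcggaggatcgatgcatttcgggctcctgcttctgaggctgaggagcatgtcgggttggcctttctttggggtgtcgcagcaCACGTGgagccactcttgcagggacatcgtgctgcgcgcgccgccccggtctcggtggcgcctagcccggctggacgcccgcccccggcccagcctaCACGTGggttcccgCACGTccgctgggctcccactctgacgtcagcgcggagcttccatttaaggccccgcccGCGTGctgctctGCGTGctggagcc

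The table of promoters held 9 of the 10 genes, and Slc2a3 was not matched. The pair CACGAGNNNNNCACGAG, searched on both strands because the Txnip promoter was known to hold it, lay at positions -85 to -69 of Txnip, counted from the start, and was found in 1 of 32851 promoter windows of this length, 0.00304%. A looser form, CACGNGNNNNNCNCGNG, which every match of that pair also fits, was found in 0.365% of the windows. Among the 9 genes it was found in Txnip alone. Both Txnip matches were fixed in advance by the choice of letters. The palindromic E-box CACGTG occurred 2 times in Ldha, starting 145 and 48 bases before the start, in none of the other 8 windows, and in 7.15% of all windows. A HIF-1 core (ACGTG or GCGTG, either strand) was found in 8 of the 9 genes, all but Aldoa, and in 43.8% of all windows. The general E-box CANNTG, the class of site that E proteins bind, was found in 6 of the 9 genes and in 72.3% of all windows. It was absent from the windows of Ldhb, Slc2a1 and Hk2. These matches describe letters in 1 window per gene and show nothing about binding.

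Txnip and Ldhb were each more than 2-fold lower in the ID2 library, while the other 8 genes stayed within 1.36-fold. Values are the authors' normalized values per library, and log2 ratios are ID2 over control after adding 1 to each value. Genes were counted as apart when they differed at least 2-fold in size. Of the 10 genes, 2 were lower and 0 higher by this rule. Among all 12679 genes with a mean of at least 50 in both libraries, the same rule counted 1.86% as lower and 2.53% as higher. Counted on the values with the scaling of each library taken out, 6 of the 10 were higher, 3 lower and 1 equal. Their median log2 ratio was 0.17, beside 47.2% higher, 51.5% lower and a median of -0.0023 over all genes above the floor. The sorted values of both libraries were the same apart from scaling, so this near-even balance over all genes was largely fixed in advance. A shift of most genes in 1 direction could not be seen. All 10 lay far above that floor, with means between 3706 (Pdk1) and 39514 (Slc2a3).

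**Figure D1:**
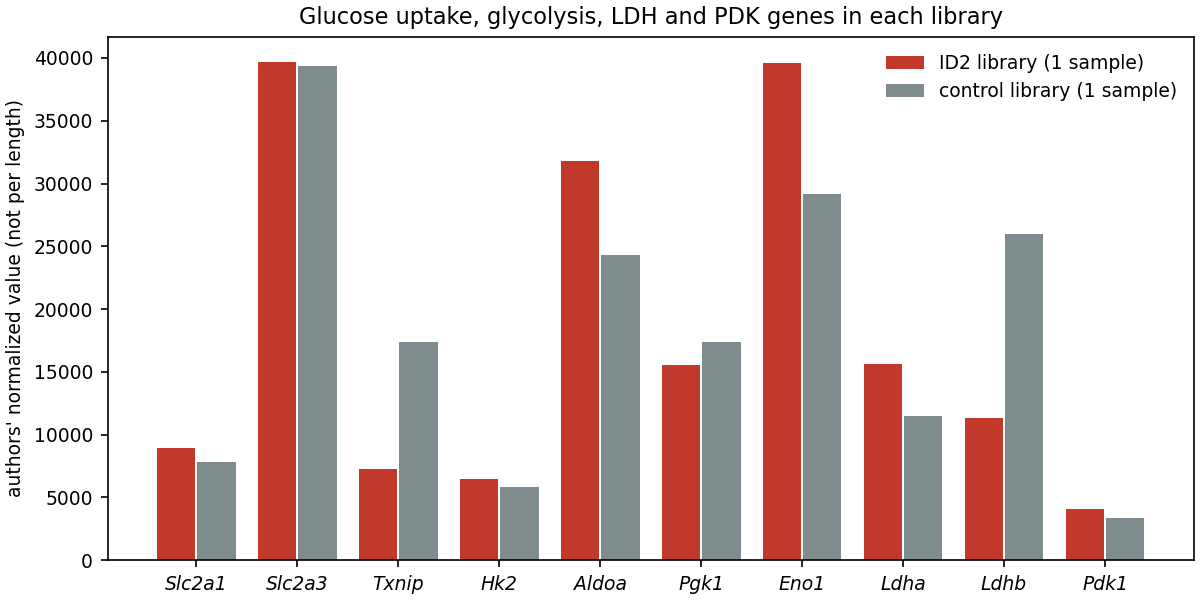
Authors' normalized value (linear axis from 0) of each of the 10 genes in the ID2 library (red, left bar) and the control library (grey, right bar), 1 sample each and so no error bars. Txnip and Ldhb have ID2 bars at 7242 and 11309, far below their control bars at 17350 and 25972, and the Slc2a3 bars are level.

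Txnip stood at 7242 in the ID2 library, against 17350 in the control library. The log2 ratio was -1.26, or 2.40-fold lower in the ID2 library. In rank among all genes of the library, Txnip held place 600 in the ID2 library and place 160 in the control library. Of 652 genes whose mean lay within 2-fold of its own, Txnip had the lowest log2 ratio, and 5% to 95% of them spanned -0.41 to 0.47. The authors' deposited table gives Txnip an adjusted p of 0.00254, the 11th smallest p of the table. That p, like the others of the table, comes from 1 library per group and so rests on no measured replicate spread. Txnip was also chosen with the values of these libraries in view, so its place by p is a description and not a test.

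The gene next to Txnip on either side did not show the same size of difference in the same direction. The nearest genes above the floor before it, Sv2a and Bola1, had log2 ratios of -0.59 and 0.12, and those after it, Polr3gl and Ankrd34a, had -0.10 and 1.39. Ankrd34a stood at 281 in the ID2 library and 106 in the control library. The antisense gene Gm15441 overlaps Txnip on the other strand in GENCODE M21, and since the library kit does not keep strand, reads of both cannot be told apart.

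Relatives and regulators of Txnip were mostly lower, by less than Txnip. Of the alpha-arrestins, the protein family of Txnip, Arrdc4, which is also induced through MondoA, stood at 1025 in the ID2 library and 1499 in the control library (-0.55). Arrdc2 had a log2 ratio of -0.63 and Arrdc1 of -0.41, whereas Arrdc3 was higher (0.32). The glucose-sensing factors themselves had log2 ratios of -0.20 for Mlxip, which encodes MondoA, -0.40 for Mlxipl, which encodes ChREBP, and -0.02 for Mlx. In all, 6 of these 7 genes were lower and 1 higher, with a median of -0.40, and 0 of 7 were 2-fold apart. Arrdc4 and Arrdc2 lay below the 5% to 95% span of genes of like level, whose lower end was -0.47 for each. The others of the 7 lay inside theirs. Arrdc5 of the same list was not in the table.

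Genes of the thioredoxin system, which holds thioredoxins, their reductases and proteins with related domains, differed by less. Of 9 genes, 5 were higher and 4 lower, with log2 ratios between -0.22 (Txndc5) and 0.14 (Txnl4a) and a median of 0.04. Txn1, the cytosolic thioredoxin, stood at 5367 in the ID2 library and 5237 in the control library. Txnrd1, its reductase, stood at 7840 in the ID2 library and 7221 in the control library (0.12), and Txnrd3 had a log2 ratio of -0.19.

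**Figure D2:**
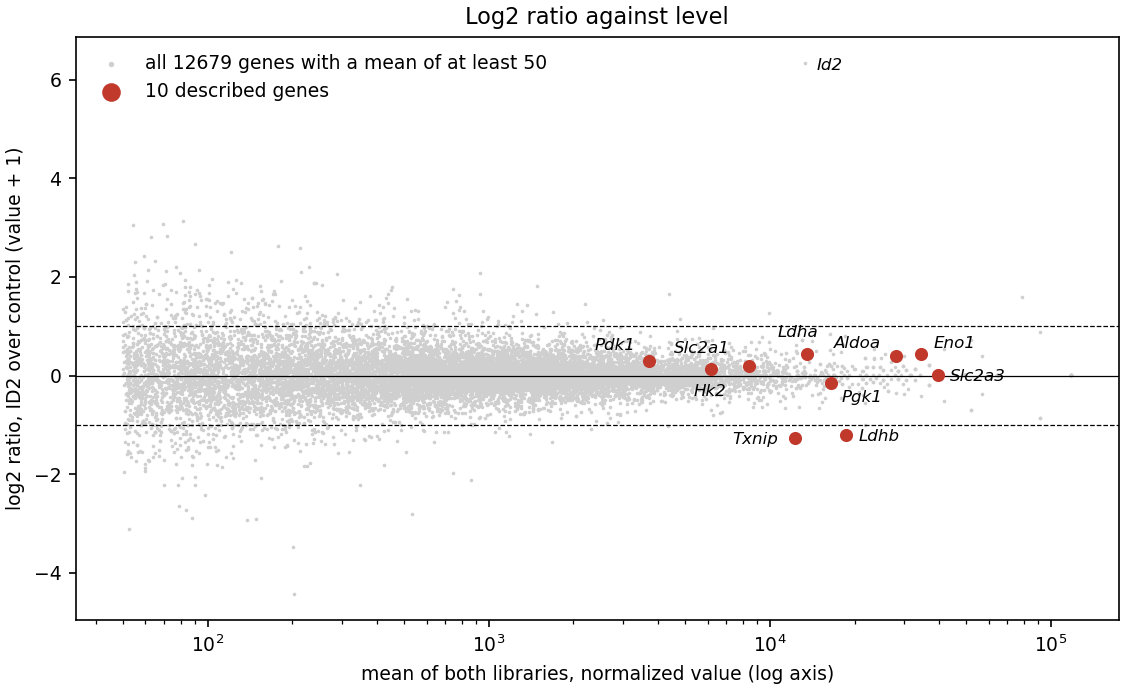
Log2 ratio of ID2 over control (vertical) against the mean of both libraries (horizontal, log axis) for 12679 genes (grey points), with the 10 described genes in red and dashed lines at 2-fold. Txnip (-1.26) and Ldhb (-1.20) lie below the narrow band of genes at their level, and the other 8 lie between -0.16 and 0.44.

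The lactate dehydrogenase genes differed in opposite directions. Ldhb stood at 11309 in the ID2 library, against 25972 in the control library, a log2 ratio of -1.20 or 2.30-fold lower. It held place 296 in the ID2 library and place 86 in the control library. Of 363 genes with a mean within 2-fold of its own, Txnip alone had a lower ratio. The authors' deposited table gives Ldhb an adjusted p of 0.00449. Only 9 of 14398 genes, 0.0625%, have an adjusted p under 0.05 and a lower value in that table, and Txnip and Ldhb are 2 of them. Both were chosen with the values of these libraries in view, so this count is a description and not a test.

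Ldha stood at 15587 in the ID2 library, against 11492 in the control library, a log2 ratio of 0.44 or 1.36-fold higher. This lies inside the 5% to 95% span of -0.41 to 0.48 over 572 genes of like level, and the authors' deposited table gives it an unadjusted p of 0.0913. The value of Ldhb over that of Ldha was 0.726 in the ID2 library and 2.26 in the control library. The balance of B to A transcripts was thus 3.11-fold lower in the ID2 library (difference of log2 ratios -1.64). The within-library ratios are not molar ratios, because transcript lengths differ and the levels of different genes are only loosely comparable in this table.

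RefSeq names 3 pseudogenes of Ldha and 1 of Ldhb, with which reads may be shared, and none of them was in the table. The neighbours of Ldhb, Recql and Golt1b before it and Cmas and St8sia1 after it, had log2 ratios of -0.08, -0.13, -0.04 and 0.43. None was lower by an amount near that of Ldhb. Lactate transport genes differed little: Slc16a1 and Slc16a3, which encode monocarboxylate transporters, had log2 ratios of 0.09 and 0.14. Their chaperones Bsg and Emb were lower, with -0.30 and -0.66. Of the 5 genes of this list that were in the table, Ldhd lay under the floor (30.1 in the ID2 library, 46.8 in the control library).

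The transporters Slc2a3 and Slc2a1 were close to level. Slc2a3, the high-affinity transporter, stood at 39706 in the ID2 library and 39323 in the control library. It held place 31 in both libraries, and its log2 ratio of 0.01 is the ratio of the scaling factors alone. Places at this level differed between the libraries in steps of 10, as described at the end. A difference too small for a step would not show. Slc2a1, the widely expressed transporter, stood at 8964 in the ID2 library and 7818 in the control library, a log2 ratio of 0.20, inside the span of -0.38 to 0.45 at its level. The antisense gene Gm12868 overlaps it on the other strand. Among the other hexose transporters above the floor, Slc2a4, the insulin-responsive transporter, was at 559 in the ID2 library and 840 in the control library. Its log2 ratio of -0.59 lay below the span of -0.56 to 0.64 at its level. Slc2a8 (-0.21) and the fructose transporter Slc2a5 (0.32) lay inside theirs. Slc2a7 (36.2 in the ID2 library, 28.9 in the control library) and the sodium-coupled Slc5a1 (34.2 in the ID2 library, 12.9 in the control library) lay under the floor.

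Of the glycolytic enzymes among the 10, 3 were higher and Pgk1 lower in the ID2 library, all less than 1.36-fold. Hk2, which traps glucose as glucose 6-phosphate, stood at 6451 in the ID2 library and 5849 in the control library (0.14). Aldoa, the aldolase that splits fructose 1,6-bisphosphate, stood at 31796 in the ID2 library and 24338 in the control library (0.39). Eno1, which forms phosphoenolpyruvate, stood at 39594 in the ID2 library and 29200 in the control library (0.44). Eno1 alone of the higher genes lay above the span at its level, but only just, as its upper end was 0.43. At that level 7 of 143 genes, Eno1 included, had a ratio as high. Pgk1, which makes ATP from 1,3-bisphosphoglycerate, stood at 15581 in the ID2 library and 17393 in the control library (-0.16).

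Copies of these genes limit their precision. Eno1b, a close copy of Eno1, is listed separately at 9569 in the ID2 library and 7728 in the control library (0.31), so that reads of the enolase pair may have been split. RefSeq names 5 copies of Aldoa and 3 of Pgk1, of which Pgk1-rs7 alone was in the table (29.1 in the ID2 library, 39.8 in the control library). Fam57b overlaps Aldoa on the other strand. In the authors' deposited table the unadjusted p of the 8 genes other than Txnip and Ldhb ran between 0.0851 (Eno1) and 0.956 (Slc2a3), and the adjusted p of all 8 was 1.

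The other glycolytic enzymes went both ways. Among 17 of them above the floor, 9 were lower, 6 higher and 2 equal. Their median log2 ratio was -0.17, and 0 were at least 2-fold apart. Tpi1 (0.22), Pgam1 (0.25) and the phosphofructokinase Pfkl (0.20) were higher, while Gpi1 (-0.17), Pfkp (-0.22) and Pfkm (-0.44) were lower. Pkm, which encodes pyruvate kinase, held place 30 in both libraries, with the same limit as for Slc2a3. Gapdh stood at the highest value of the table in both, which 10 genes of each library share, so that its ratio is set by that ceiling.

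Isoforms of the same enzyme differed in direction. Hk1 stood at 5787 in the ID2 library and 7994 in the control library (-0.47), beside Hk2 at 0.14. Aldoc, the brain aldolase, stood at 547 in the ID2 library and 875 in the control library (-0.68), beside Aldoa at 0.39. Eno2, the neuronal enolase, stood at 1062 in the ID2 library and 1956 in the control library (-0.88), beside Eno1 at 0.44. In the authors' deposited table Eno2 had an unadjusted p of 0.00651 and an adjusted p of 0.613.

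Over the 5 families that hold one of the 10 genes and other isoforms above the floor, 8 of the 11 other isoforms were lower in the ID2 library and 3 higher, with a median of -0.47. The 3 were Slc2a5, Eno3, the muscle enolase (0.59, at 195 in the ID2 library and 129 in the control library), and Eno4 (0.22). This grouping by family was made after the values were seen. It leaves out Eno1b, the close copy of Eno1, which was higher (0.31). Over all genes above the floor, 51.5% were lower and 47.2% higher.

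**Figure D3:**
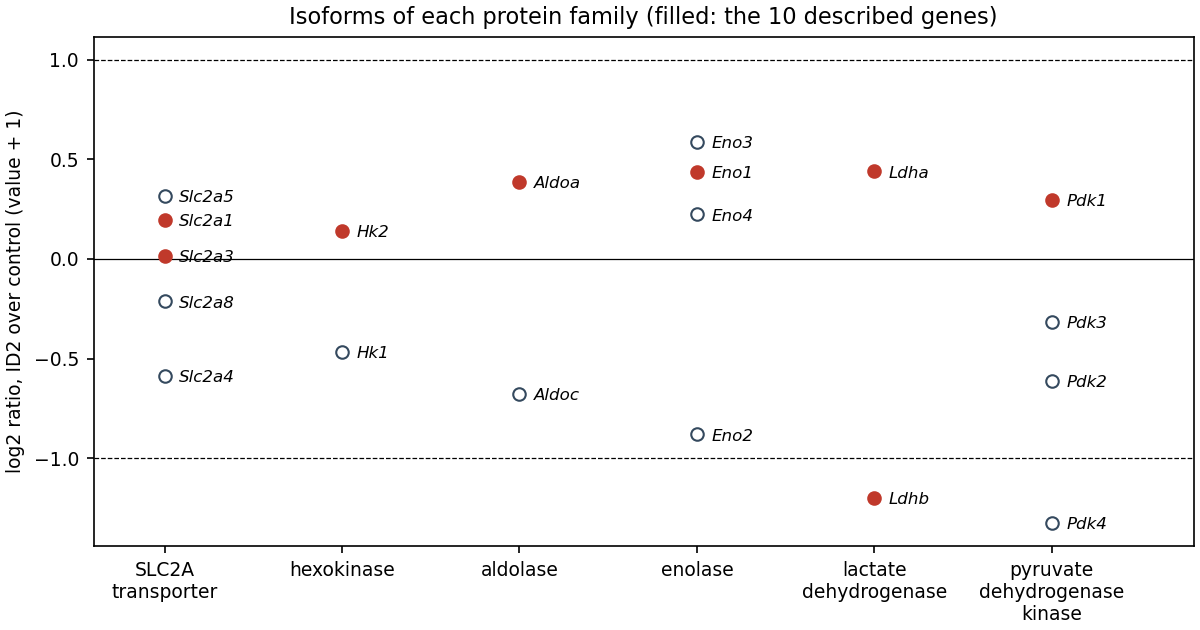
Log2 ratio of ID2 over control for each isoform with a mean of at least 50 except Eno1b, by protein family. Filled points are the 10 described genes other than Pgk1 and Txnip, open points other isoforms, dashed lines mark 2-fold. Hk1 (-0.47), Aldoc (-0.68), Eno2 (-0.88) and Pdk4 (-1.33) lie below 0 while Hk2, Aldoa, Eno1 and Pdk1 lie above it.

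Pyruvate dehydrogenase kinases, which switch off pyruvate entry into the citric acid cycle, differed among themselves. Pdk1, the HIF-1 target of the family, stood at 4086 in the ID2 library and 3326 in the control library (0.30, inside the span of -0.39 to 0.46 at its level). Pdk4, the isoform linked to fasting and fat oxidation, stood at 269 in the ID2 library and 677 in the control library (-1.33). Among genes of all pathway lists above the floor, Pdk4 was the 1 gene that was at least 2-fold apart. In the authors' deposited table its unadjusted p was 0.00292 and its adjusted p 0.390. Pdk2 had a log2 ratio of -0.61 and Pdk3 of -0.32.

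The list of pyruvate entry, which also holds the inhibiting kinases Pdk2, Pdk3 and Pdk4 given above, was mostly lower by small amounts. Of 14 genes, 13 were lower and 1, Pdhx (0.46), higher, with a median of -0.23. The 1 gene at least 2-fold lower was Pdk4 again, 7.14% of the list beside 1.86% of all genes. No gene of the pyruvate carrier or of the dehydrogenase complex itself was 2-fold apart. Mpc1, a subunit of the mitochondrial pyruvate carrier, stood at 143 in the ID2 library and 271 in the control library (-0.92), and its partner Mpc2 had -0.07. Pdp1, a phosphatase that reactivates the complex, had -0.63. The catalytic subunits Pdha1 (-0.15) and Pdhb (-0.06) were close to level.

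Regulators that set the rate of glycolysis were lower apart from Tigar. Tigar, which lowers fructose 2,6-bisphosphate, stood at 1811 in the ID2 library and 1019 in the control library (0.83). The bifunctional enzymes that set the same metabolite were lower, with Pfkfb3 at 291 in the ID2 library and 475 in the control library (-0.70), Pfkfb1 at -0.46, Pfkfb2 at -0.40 and Pfkfb4 at -0.11. The median of the 5 was -0.40 and 0 of 5 were 2-fold apart.

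Neighbouring pathways were close to level at the median. In the pentose phosphate pathway, 5 of 8 genes were higher and 3 lower (median 0.02). H6pd, the microsomal glucose 6-phosphate dehydrogenase, was at 1483 in the ID2 library and 820 in the control library (0.85), its cytosolic counterpart G6pdx at 0.29, Pgd at 0.32 and Rpia at -0.66. In the tricarboxylic acid cycle, 14 of 20 genes were lower and 6 higher (median -0.10), between Suclg2 at -0.46 and Mdh2 at 0.22, with citrate synthase Cs and Sdhd at -0.34 each and Ogdh at -0.25.

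Of 8 genes of HIF subunits and of factors that restrain HIF, 6 were higher and 2 lower (median 0.11). The list mixes both kinds, so this count has no single direction for HIF-1. Hif1a itself stood at 2343 in the ID2 library and 2197 in the control library (0.09). Egln2, a prolyl hydroxylase that marks HIF for degradation, was at 1728 in the ID2 library and 1043 in the control library (0.73), Epas1 at 0.23, Arnt at -0.44 and Vhl at -0.27. Over all 10 pathway lists, 99 of 118 genes were in the table and 95 above the floor, of which 59 were lower, 34 higher and 2 equal (median -0.08). Of these 95, 1.05% were at least 2-fold lower and 0 were 2-fold higher. At 1.5-fold, 11 of the 95 (11.6%) were lower, beside 6.59% of all genes above the floor, and 4 (4.21%) were higher, beside 8%. Of the 10 genes, 2 were at least 1.5-fold lower. In the pathway lists, some genes lay outside the 5% to 95% span at their level, which leaves 5% of genes on each side. Below it lay Hk1, Pfkm, Aldoc, Eno2, Pfkfb3, Slc2a4, Emb, Mpc1, Pdk2, Pdk4, Arrdc2, Arrdc4, Arnt and Suclg2. Above it lay Tigar, Egln2 and H6pd.

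**Figure D4:**
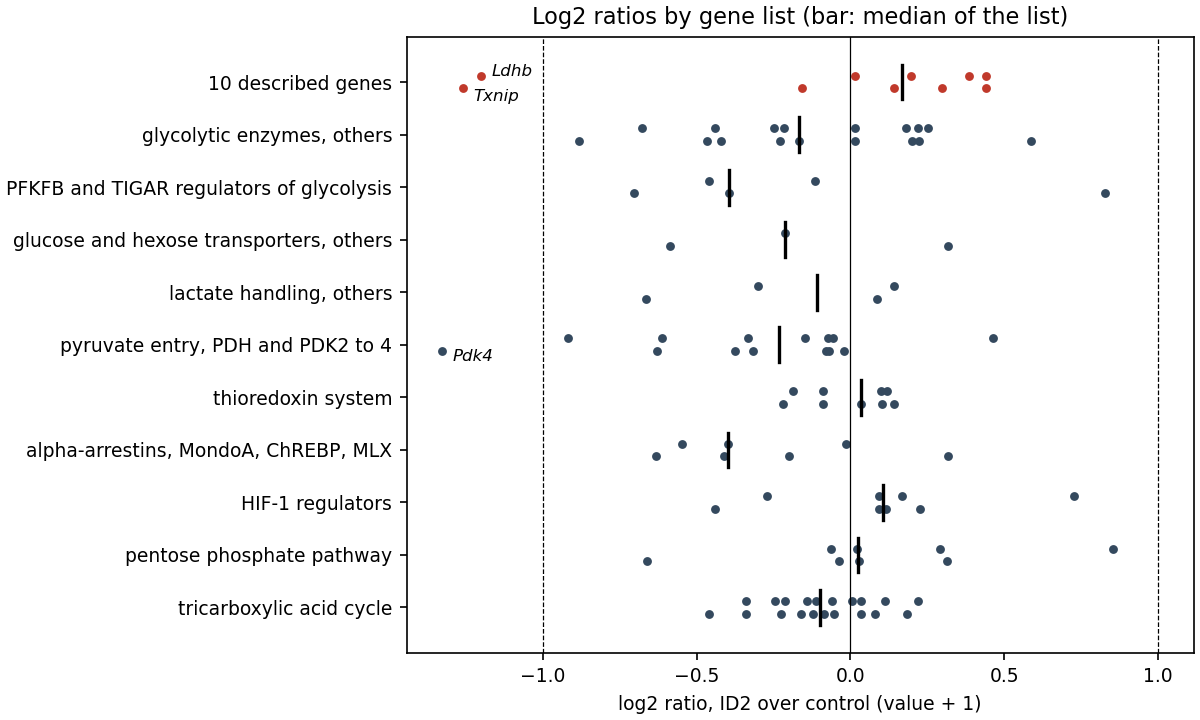
Log2 ratio of ID2 over control for each gene with a mean of at least 50, by list (1 point per gene, bar at the list's median, dashed lines at 2-fold). Txnip, Ldhb and Pdk4 are the points beyond the 2-fold line, and the list medians lie between -0.40 and 0.17.

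Id2 and cell type markers were set against the labels. Id2 stood at 26225 in the ID2 library and 324 in the control library, and its ratio includes vector transcripts only as far as they match the mouse gene. Of 8 pluripotency markers, all 8 were in the table, summing to 118966 in the ID2 library and 97507 in the control library, 7 higher and 1 equal, with log2 ratios up to 0.85 (Zfp42). Of 12 fibroblast and feeder markers, 8 were in the table and summed to 1840 in the ID2 library and 2548 in the control library. Of the 6 above the floor 3 were lower and 3 higher. Col1a1, at 139 in the ID2 library and 339 in the control library (-1.28), had a ratio near those of Txnip and Ldhb. It lay below the span at its level, which was wider (-0.79 to 0.93). Thy1 (-0.67) and Pdgfrb (-0.38) were also lower, Loxl1 was higher (0.45), and Fbn1 (0.13) and Pdgfra (0.03) were higher by little. Under the floor, Col1a2 (7.03 in the ID2 library, 39.8 in the control library) and Tnc (7.03 in the ID2 library, 28.9 in the control library) were lower. Col3a1, Lum, Dcn and Postn were not in the table, and a gene that is not in it cannot be given a level. The 6 of 8 primitive endoderm markers in the table summed to 6463 in the ID2 library and 5865 in the control library, most of it Lama1. Among them Sox7 was at 127 in the ID2 library and 16.9 in the control library (2.83), and Gata4 was lower (-0.93). The 4 of 8 neuroectoderm markers summed to 2445 in the ID2 library and 1872 in the control library. Sox1, the locus of the reporter, was at 782 in the ID2 library and 386 in the control library (1.02), and Nes was lower (-0.88). Sums add levels of different genes and are a rough guide. Fewer cells of a type and less RNA per cell cannot be told apart in bulk RNA, and the part of these cell types in the values above was not tested.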

How the data were processed

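RNA of 46C mouse embryonic stem cells was sequenced in 2 libraries, 1 per group, after Trizol extraction and a TruSeq v2 preparation that does not keep strand, per the labels. STAR, DESeq and the build mm9 were used, per the submitters' processing notes. No tool version, annotation or counting step is named (not given in the sources used here). Per the file headers, the authors deposited a normalized signal value per library and gene, their mean, a ratio (fold, ID2 over control), its log2, and a p-value, raw and adjusted.

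All signal values deposited by the authors were whole multiples (within 0.01) of 1.00 in the ID2 library and 0.995 in the control library. Sorted, the multiples were identical in both libraries (0 ranks differed), so read depth is unknown and no counting interval was computed. The lowest mean was 14.0, and 1719 of 14398 genes fell below the floor of 50.

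Log2((ID2 + 1)/(control + 1)) was computed for each gene (Python 3.11.15, numpy 2.4.6, pandas 2.3.3, matplotlib 3.10.9). Higher, lower and equal were counted on the whole multiples. Genes within 2-fold of a gene's mean gave its 5% to 95% span. No test was run, since a group of 1 library has no spread. The genes, lists and rules were chosen with earlier results of these data known. Named pathway genes were, above the floor, up to 4 per list with the largest ratios and those 2-fold apart, and all listed Slc2a, Ldh, Hk, Pdk, Eno, Aldo and Arrdc genes. Txn1, Hif1a, Mlxip, Mlx, Gpi1, Tpi1, Pgam1, Pfkl, Pfkm, Pfkp, Pkm, Gapdh, Pdha1, Pdhb, Pdhx, Mpc2, Pfkfb4, Mdh2 and Slc5a1 (under the floor), and the cell type markers given singly, are outside that rule and were chosen after their values were seen. Promoters and names of copies came from RefSeq (GRCm38.p6) and overlaps from GENCODE M21, not from mm9. Alternatives were pseudocounts of 0.1 and 10, a median ratio of 1, whole multiples, the authors' log2 column, no floor or a floor of 250, thresholds of 1.5-fold and 4-fold, and leaving out genes at the highest value.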

Additional observations from a re-analysis of the deposited data

How the results depend on the processing

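Of 93 recomputed values, 88 stayed within 0.1 on the log2 scale, or within 1.5 times for counts, 5 moved and 0 reversed. A change of sign counted as reversed only where the main log2 value was at least 1 in size. That held for Txnip, Ldhb and the difference between Ldhb and Ldha alone. No alternative changed the authors' normalization beyond its scaling. The largest shift of a log2 ratio among the 10 genes was 0.0140, so most alternatives could hardly move them. Txnip ran between -1.27 and -1.26, Ldhb between -1.21 and -1.20, and the difference between Ldhb and Ldha stayed at -1.64. Slc2a3 was 0 on whole multiples and at most 0.02. With a threshold of 1.5-fold, 4 of 95 pathway genes were higher (4.21%, beside 8% of all genes above the floor), 11 were lower (11.6%, beside 6.59%), and 2 of the 10 genes were lower. With a threshold of 4-fold, 0 of the 10 genes and 0 pathway genes were lower. Without a floor 1 pathway gene, Slc5a1, was 2-fold higher. No paired analysis was possible because each group has 1 library. Read depth is unknown, so no limit from counting error can be given, and no value here separates the effect of ID2 from other differences between 2 cultures.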

Other observations

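The places of genes in the 2 libraries were linked in a way that no header or label describes. Of 352 genes with a mean of at least 10000, 349 (99.1%) differed between libraries by a multiple of 10 places, and so did all 10 genes described here: Txnip by 440, Pdk1 by 370, Ldhb by 210, Ldha, Slc2a1 and Hk2 by 100 each, Aldoa by 40, Pgk1 and Eno1 by 30 each and Slc2a3 by 0. In each library 10 genes also shared the highest value. At this level the values thus appeared to run in interleaved ladders spaced 10 places apart, in which all but 3 genes kept their ladder. Grouped by the last digit of their place in the control library, 338 of these genes had median GC contents of the longest GENCODE M21 transcript between 43.4% and 57.2%, beside an interquartile range of 45.7% to 54.0% over all of them. The last digits formed 9 classes and not 10: digit 4 had no gene and digit 3 had 68, against 32 to 36 for the others. The same value in different ladders need not be the same abundance: Slc2a3 and Eno1 stood at 39706 and 39594 in the ID2 library. For this reason places in the table are given only to compare a gene between the libraries, and levels of different genes were not compared per length.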
